A study of Mus musculus with 12 samples.

Results

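Chemokines and their receptors were followed in whole-tissue RNA of mouse proximal thoracic aorta, from 7 chronic aneurysms (cPTAA; libraries 2, 3, 4, 6, 7, 9 and 12) and 5 sham-operated vessels (libraries 1, 5, 8, 10 and 11). Members were taken by gene symbol: any listed gene whose name begins with Ccl, Cxcl, Cx3cl, Xcl, Ccr, Cxcr, Cx3cr, Xcr or Ackr and then a digit. This gave 63 of 30130 listed genes, of which 40 are ligands, 19 are receptors and 4 are atypical receptors. Per the labels all mice were male, of the strain spelled C56BL/6J, and no age or time after surgery is given there. The aneurysm group received periaortic elastase, which digests elastic fibres, together with BAPN, an inhibitor of lysyl oxidase enzymes. The sham group had sham surgery and normal water, so that elastase and BAPN form a single contrast and cannot be told apart. The labels number the samples without naming animals, and p-values therefore measure the spread between these samples.

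Chemokines are small secreted proteins that bind G protein-coupled receptors on leukocytes and direct their migration. They are classed by the spacing of their first cysteines into CC, CXC, CX3C and XC families, and most inflammatory members share receptors, whereas several homeostatic members have a receptor of their own. Atypical receptors bind chemokines without classical G protein signalling and scavenge, transport or present them. In the aortic wall the family is best known for bringing monocytes, neutrophils and lymphocytes into the adventitia and media of diseased segments.

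The family was higher in the aneurysms across most of its branches. Of the 55 members that passed the filter on low values (a normalised read count of at least 1 in at least 5 libraries), 39 were higher and 1 was lower in cPTAA by limma at an adjusted p under 0.05, which is 70.9% higher. Of all tested genes, 12.9% were called higher and 11.1% lower. The median log2 fold change of the tested members was 2.52 (2.56 with Ccr8, which had 0 reads in sham, at its lower bound), against -0.05 over all tested genes. In 29 members every cPTAA library lay above every sham library, a pattern found in 8.02% of tested genes. A log2 fold change over 1 was found in 41 members and in 11.8% of tested genes. By class, 23 of 34 tested ligands, 12 of 17 receptors and 4 of 4 atypical receptors were higher. Of the ligands 0 were called lower by limma, where 1, Ccl28, had an unadjusted p under 0.05. DESeq2 called that gene lower, and edgeR called Cxcl15 lower instead. Both ligands had their highest value in sham 8. The lower receptor was Ccr10.

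**Figure D1:**
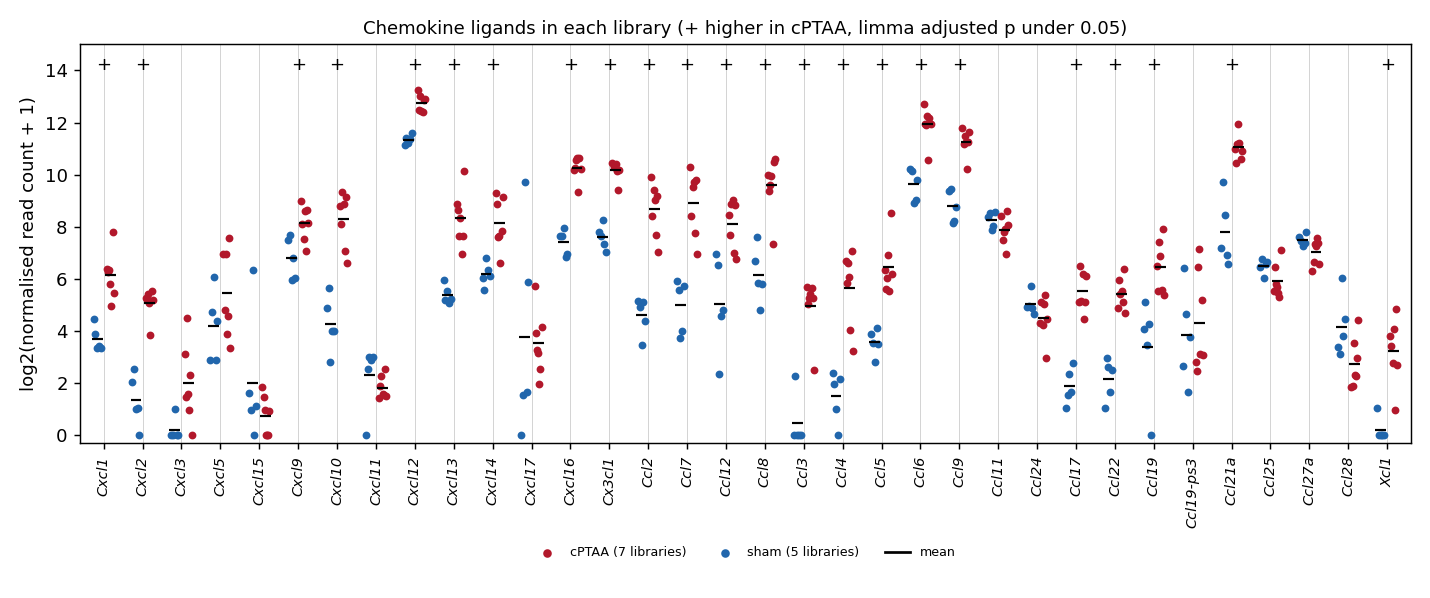
Log2(normalised read count + 1) of the 34 tested ligands in each of the 7 cPTAA (red) and 5 sham (blue) libraries, with the group mean as a bar and a plus sign over the ligands that were higher in cPTAA. The plus sign stands over 23 ligands, and Ccl11, Ccl24, Ccl25 and Ccl27a are among the 11 without one.

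The tissue around these genes differed between the groups as well. Smooth muscle genes were abundant in every library, with a summed level of 65512 to 258512 normalised read counts over 7 markers in cPTAA and of 205478 to 283104 in sham, and 2 of the 7 were lower in cPTAA, Myh11 (log2 fold change -1.30 ± 0.38) and Lmod1 (-0.76 ± 0.26). Fibroblast markers were higher in 4 of 7, and white adipocyte markers were lower in 4 of 6. Dendritic cell markers were higher in 4 of 8 and lower in 1, and the higher ones include Xcr1, itself a member of the family followed here. Macrophage markers were higher in 8 of 10 (sums 19307 to 37043 against 5069 to 10985), monocyte markers in 5 of 6, T cell markers in 8 of 8, B cell markers in 6 of 6 and NK cell markers in 4 of 6. Of the neutrophil markers, 1 of 5 tested was higher. All 9 brown adipocyte markers were lower (sums 1791 to 45357 against 33764 to 106995), and endothelial markers were lower in 3 of 6 and higher in 0. In bulk tissue more cells of a type and more RNA per cell cannot be told apart, and the part of these cell types in the changes below was not tested. Libraries held 15238188 to 17493428 reads in cPTAA and 14078885 to 16740960 in sham.

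Of the ligands that recruit monocytes through CCR2, Ccl2 and Ccl7 were among the largest rises. Values below are normalised read counts, listed for sham in the order 1, 5, 8, 10 and 11. Ccl2 (MCP-1), the main monocyte chemoattractant, was at 34.8, 29.2, 10.2, 33.6 and 19.8 in sham and at 128 to 965 with a median of 521 in cPTAA (log2 fold change 4.06 ± 0.46 SE, limma adjusted p = 2.59e-05). Every aneurysm lay above every sham library, with cPTAA 12 the lowest and cPTAA 2 the highest. Ccl7, a close relative of Ccl2 and a CCR2 agonist too, was at 59.0, 46.8, 12.2, 15.2 and 52.4 against 125 to 1242 with a median of 732 (log2 fold change 3.94 ± 0.57, adjusted p = 0.000174). It ran with Ccl2 in having its lowest cPTAA value in library 12 and its highest in library 2. Ccl12, the third mouse CCR2 ligand, was at 122, 90.6, 4.07, 22.8 and 26.8 against 107 to 518 with a median of 346 (log2 fold change 3.05 ± 0.68, adjusted p = 0.00418). Here the groups overlapped, since sham 1 was above the lowest aneurysm, cPTAA 12.

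Ccl8, which in mice acts on CCR8, was at 102, 197, 56.0, 27.1 and 54.7 in sham and at 161 to 1537 with a median of 978 in cPTAA (log2 fold change 3.46 ± 0.53, adjusted p = 0.000282). The overlap came from cPTAA 7, which at 161 fell under sham 5, while the other 6 aneurysms were at 663 or more. Ccr2 itself, the receptor that marks inflammatory monocytes, was at 191, 285, 169, 80.3 and 89.6 against 558 to 1994 with a median of 1328 (log2 fold change 3.002 ± 0.36, adjusted p = 3.59e-05). No aneurysm overlapped the sham values. Ccr8, known from regulatory and other T cells, had 0 reads in all 5 sham libraries and 50 reads over the 7 aneurysms (0.966 to 19.4 normalised read counts, median 4.88). Against a floor of 3 reads over the sham group its mean was at least 10.5-fold higher (limma adjusted p = 0.00426). In cPTAA 7 the summed macrophage markers were also the lowest among the aneurysms, at 19307 against 30292 to 37043 in the other 6.

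Ccl3, Ccl4, Ccl5, Ccl6 and Ccl9, inflammatory CC ligands most of which act on CCR1, were all called higher, 5 of 5. Ccl3 and Ccl4 (MIP-1 alpha and beta), made by activated myeloid cells and lymphocytes, were nearly undetected in sham. Ccl3 was at 0, 3.90, 0, 0 and 0 in sham and at 4.62 to 50.9 with a median of 37.3 in cPTAA (log2 fold change 4.51 ± 0.60, adjusted p = 8.50e-05). Ccl4 was at 4.22, 2.92, 1.02, 0 and 3.49 against 8.31 to 133 with a median of 67.0 (log2 fold change 4.14 ± 0.68, adjusted p = 0.000455). In both genes cPTAA 12 was the lowest aneurysm, and no values overlapped. Ccl5 (RANTES), a product of T and NK cells, was at 13.7, 10.7, 6.11, 16.3 and 10.5 against 45.4 to 372 with a median of 72.9 (log2 fold change 2.89 ± 0.46, adjusted p = 0.000359). Its highest value was in cPTAA 9.

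Ccl6 and Ccl9, mouse CC chemokines expressed by macrophages, stood much higher in level. Ccl6 was at 1193, 1125, 482, 527 and 895 in sham and at 1529 to 6757 with a median of 3958 in cPTAA (log2 fold change 2.31 ± 0.32, adjusted p = 0.000131). Ccl9 was at 666, 692, 285, 296 and 427 against 1205 to 3546 with a median of 2462 (log2 fold change 2.47 ± 0.28, adjusted p = 2.65e-05). The groups did not overlap in either gene, and cPTAA 7 was the lowest aneurysm in both. Their receptor Ccr1, found on monocytes, macrophages and neutrophils, was at 79.1, 37.0, 28.5, 23.9 and 24.4 against 145 to 455 with a median of 361 (log2 fold change 3.12 ± 0.33, adjusted p = 1.71e-05). The receptor was free of overlap too, and was lowest among the aneurysms in cPTAA 7.

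**Figure D2:**
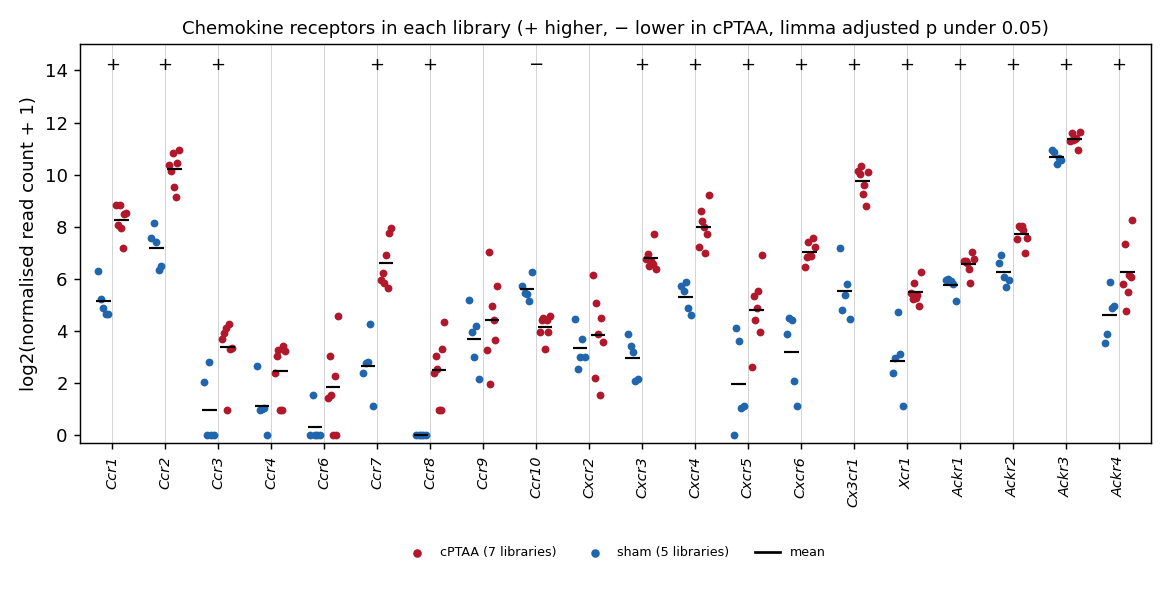
Log2(normalised read count + 1) of tested receptors and the 4 atypical receptors in each of the 7 cPTAA (red) and 5 sham (blue) libraries, with group means as bars, a plus sign over genes higher and a minus sign over the gene lower in cPTAA. Ccr10 is the gene with a minus sign, and Ccr8 lies at 0 in all 5 sham libraries.

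The membrane-anchored chemokines and their receptors had some of the smallest p-values of the family. Cx3cl1 (fractalkine), an adhesive chemokine of endothelium and other stromal cells, was at 219, 198, 303, 161 and 132 in sham and at 672 to 1403 with a median of 1268 in cPTAA (log2 fold change 2.56 ± 0.22, adjusted p = 3.89e-06). Its receptor Cx3cr1, a marker of patrolling monocytes and tissue macrophages, was at 144, 27.3, 40.7, 54.3 and 20.9 against 440.2 to 1273 with a median of 1043 (log2 fold change 4.22 ± 0.40, adjusted p = 7.53e-06). Neither gene overlapped between the groups, and cPTAA 9 was the lowest aneurysm in both. Cxcl16, which also binds oxidised lipoproteins, was at 201, 202, 249.6, 115 and 125 against 643 to 1601 with a median of 1217 (log2 fold change 2.84 ± 0.25, adjusted p = 4.61e-06). Its receptor Cxcr6, present on effector T cells and natural killer T cells, was at 13.7, 21.4, 20.4, 3.26 and 1.16 against 86.3 to 191 with a median of 119 (log2 fold change 3.85 ± 0.52, adjusted p = 9.96e-05). These values did not overlap either. Reads of Cxcl16 and of the opposite-strand gene Zmynd15, whose exons overlap in GENCODE M21, cannot be told apart where no strand setting is stated.

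Among CXC ligands the counts higher were 2 of 5 with the ELR motif, 2 of 3 for CXCR3 and 3 of 4 others, and no test compared these groups. The ligands with the ELR motif draw neutrophils through CXCR2. Cxcl1 was at 21.1, 13.6, 9.17, 9.77 and 9.31 in sham and at 29.9 to 223 with a median of 75.5 in cPTAA (log2 fold change 2.44 ± 0.42, adjusted p = 0.000705). Cxcl2 was at 3.16, 4.87, 1.02, 1.09 and 0 against 13.5 to 45.1 with a median of 36.9 (log2 fold change 3.75 ± 0.46, adjusted p = 4.75e-05). Neither overlapped between the groups, and cPTAA 7 had the lowest aneurysm value of both. Cxcl3 had 1 read in all of sham and 40 in cPTAA, a ratio of 25.4 (95% exact interval 4.31 to 1030, counting error only), and did not pass (limma adjusted p = 0.0604), although edgeR, DESeq2, voom and limma with a pseudocount of 0.1 called it higher. Cxcl5 spread from 9.23 to 191 in cPTAA and from 6.33 to 67.2 in sham (log2 fold change 1.26 ± 0.79, adjusted p = 0.275). Cxcr2, the neutrophil receptor for this group, was at 21.1, 4.87, 7.13, 11.9 and 6.98 in sham and at 1.93 to 70.8 with a median of 13.8 in cPTAA (log2 fold change 0.51 ± 0.70, adjusted p = 0.645). The aneurysm libraries thus ranged both above and below sham for that receptor. Its relative Cxcr1 was too low to test, with 12 reads in cPTAA and 4 in sham. Of the neutrophil genes, S100a8 had a mean of 77.6 ± 71.1 in cPTAA and 49.8 ± 29.1 in sham (SD; adjusted p = 0.905). Csf3r, the receptor for G-CSF, had means of 238 ± 107 and 50.4 ± 20.5 (SD; adjusted p = 0.000344).

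Ligands of CXCR3, which are induced by interferons and draw activated T and NK cells, were called higher in 2 of 3. Cxcl10 was at 28.5, 48.7, 6.11, 15.2 and 15.1 in sham and at 96.9 to 651 with a median of 448 in cPTAA (log2 fold change 4.01 ± 0.53, adjusted p = 8.68e-05). No values overlapped, and the lowest aneurysm was cPTAA 12. Cxcl9 was at 180.3, 206, 61.1, 112 and 65.2 against 134 to 501 with a median of 279.7 (log2 fold change 1.35 ± 0.37, adjusted p = 0.0150). Both sham 1 and sham 5 were above the lowest aneurysm, cPTAA 7, and without sham 11 this gene no longer passed (log2 fold change 1.16, adjusted p = 0.05001). Cxcl11 was at 1.73 to 4.90 in cPTAA and at 0 to 7.13 in sham (log2 fold change -0.47 ± 0.53, adjusted p = 0.574). Cxcr3, their shared receptor, was at 13.7, 9.74, 8.15, 3.26 and 3.49 against 82.1 to 213 with a median of 102 (log2 fold change 3.84 ± 0.36, adjusted p = 6.87e-06). The receptor was thus without overlap, with cPTAA 9 the highest. Cxcl10 overlaps the opposite-strand gene Art3 in GENCODE M21.

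The upstream sequences of Cxcl1, Cxcl2, Cxcl3 and Cxcl10 are shown because these CXC genes, which lie on 1 chromosome in 2 separate runs, carry matches to the NF-kappa B motif, through which inflammatory cytokines act on many chemokine genes. The letters searched were GGG and TTCC with any 3 bases between them for kappa B, GAAA and GAAA with any 2 bases between them for the interferon-stimulated response element (ISRE) and TTCNNNGAA for the gamma-activated site (GAS), on both strands of the 250 bases before each start site in RefSeq (GRCm38.p6). Each sequence is written 5′ to 3′ on the strand of its gene, and capitals mark the matches.
Cxcl1, chr5:90891141-90891199, plus strand: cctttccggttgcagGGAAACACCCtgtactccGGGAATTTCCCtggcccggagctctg
Cxcl2, chr5:90903787-90903845, plus strand: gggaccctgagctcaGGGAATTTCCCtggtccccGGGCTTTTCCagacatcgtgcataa
Cxcl3, chr5:90786013-90786075, plus strand: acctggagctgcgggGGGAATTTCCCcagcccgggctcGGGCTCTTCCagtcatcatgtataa
Cxcl10, chr5:92348969-92349117, minus strand: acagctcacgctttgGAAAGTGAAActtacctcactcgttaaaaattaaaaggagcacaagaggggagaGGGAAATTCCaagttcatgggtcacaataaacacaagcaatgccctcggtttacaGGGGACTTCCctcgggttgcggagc
In Cxcl1, Cxcl2 and Cxcl3 the 11 capitals GGGAATTTCCC hold 2 overlapping matches, since the motif fits both strands there, and a further match lies close by. The Cxcl10 stretch opens with the ISRE match, at 213 to 204 bases before the start, and then holds kappa B matches at 159 to 150 and 104 to 95. Promoters were given for 46 members (53 windows), and 9 windows, 16.98%, held a kappa B match against 4.65% of all 32851 windows. The ISRE letters were in 3 member windows (5.66%, against 2.98% of all), those of Cxcl10, Cxcl14 and Ccl19, and the GAS letters in 4 (7.55%, against 7.02%). Of the 9 genes with a kappa B match, 5 were called higher (Cxcl1, Cxcl2, Cxcl10, Ccl9 and Ccr3), and Ccl1, Ccl20, Ccr6 and Cxcl3 were not. Of all 46 members with a promoter window, 31 were called higher. A match describes these letters alone.

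Cxcl12 and both of its receptors were called higher. Cxcl12 (SDF-1), a constitutive stromal chemokine that holds progenitors and lymphocytes in tissue, was at 2265, 2719, 2406, 2609.8 and 3109.9 in sham and at 5349 to 9632 with a median of 7436 in cPTAA (log2 fold change 1.41 ± 0.17, adjusted p = 3.79e-05). Every aneurysm was above every sham library. Cxcr4, the signalling receptor, was at 51.7, 45.8, 58.1, 28.2 and 23.3 against 126 to 602 with a median of 251 (log2 fold change 2.67 ± 0.36, adjusted p = 0.000106), also with no overlap. Ackr3, the scavenging receptor of Cxcl12, was at 1964, 1857, 1347, 1593 and 1532 against 1954 to 3194 with a median of 2608 (log2 fold change 0.68 ± 0.14, adjusted p = 0.00299). Here sham 1 reached just above the lowest aneurysm, cPTAA 9. The log2 ratio of Cxcl12 to Cxcr4 differed by -1.26 ± 0.45 between the groups and did not pass (exact permutation adjusted p = 0.0566). That of Cxcl12 to Ackr3 differed by 0.73 ± 0.22 (exact permutation adjusted p = 0.0463), a call lost in 12 of the alternatives with differences of 0.61 to 0.82. Per kilobase of exon, with the exons of all transcripts of a gene joined, the mean level of Ackr3 in sham was 495. That of Cxcl12 was 321 and that of Cxcr4 was 22.9 normalised read counts. In cPTAA the same levels were 794, 864 and 160.

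Chemokines that organise lymphoid tissue were higher together with their receptors. Cxcl13, the B cell attractant of follicles, was at 61.1, 36.0, 45.8, 32.6 and 36.1 in sham and at 123 to 1127 with a median of 318 in cPTAA (log2 fold change 2.92 ± 0.43, adjusted p = 0.000177). The groups were apart, and cPTAA 12 held the top value, more than the next highest library, cPTAA 2, at 470.4. Cxcr5, its receptor on B cells and follicular helper T cells, was at 0, 16.6, 11.2, 1.09 and 1.16 against 5.18 to 119 with a median of 28.6 (log2 fold change 2.83 ± 0.79, adjusted p = 0.0173). Its lowest aneurysm, cPTAA 2, lay under sham 5 and sham 8, and the call was lost without sham 1 (log2 fold change 2.34, adjusted p = 0.0520) or sham 10 (2.60, adjusted p = 0.0508). Exons of Cxcr5 overlap the opposite-strand gene Bcl9l. Beside these genes, 6 of 6 B cell markers and 1 of 4 tested lymphoid stroma markers were higher.

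The CCR7 axis guides dendritic cells and naive T cells toward lymphatics and lymph nodes. Ccl21a was at 147, 848, 348, 122 and 95.4 in sham and at 1395 to 3938 with a median of 2013 in cPTAA (log2 fold change 3.26 ± 0.45, adjusted p = 0.000107). Ccl19 was at 15.8, 34.1, 10.2, 18.4 and 0 against 40.6 to 240.2 with a median of 89.8 (log2 fold change 3.06 ± 0.74, adjusted p = 0.00746). Ccr7 was at 4.22, 5.84, 6.11, 18.4 and 1.16 against 49.2 to 246 with a median of 74.6 (log2 fold change 3.94 ± 0.54, adjusted p = 0.000105). All 3 were without overlap, although sham 5 was high in both ligands. Values of the ligands are uncertain because of close copies: 71.6% of the stretches of 50 bases in Ccl21a transcripts and 52.0% of those in Ccl19 transcripts occur in transcripts of other genes in GENCODE M21. The copy Ccl19-ps3 was at 4.49 to 142 in cPTAA and at 2.17 to 84.7 in sham (log2 fold change 0.49 ± 0.95, adjusted p = 0.755). Beside Ccl21a, which lymphatic endothelium makes, all 6 lymphatic endothelial markers were higher (sums 2855 to 6879 against 955 to 1867). A large part of these sums was Lyve1, at 1154 to 3056 in cPTAA and 432 to 883 in sham, which is in the macrophage list as well. Prox1 was at 111 ± 17.7 against 15.1 ± 8.62 (SD; log2 fold change 2.97 ± 0.33, adjusted p = 2.32e-05).

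Axes of T helper, dendritic and cytotoxic cells were called in part. Ccl17, a dendritic cell product that draws CCR4+ T cells, was at 1.05, 1.95, 4.07, 2.17 and 5.82 in sham and at 21.2 to 89.9 with a median of 34.2 in cPTAA (log2 fold change 3.64 ± 0.43, adjusted p = 3.70e-05). Ccl22, the other CCR4 ligand, was at 1.05, 6.82, 5.09, 2.17 and 4.66 against 24.9 to 82.4 with a median of 42.0 (log2 fold change 3.27 ± 0.41, adjusted p = 6.11e-05). Both ligands were apart between the groups. Ccr4 itself was at 5.27, 0.974, 1.02, 1.09 and 0 against 0.966 to 9.80 with a median of 7.19, and did not pass (log2 fold change 1.34 ± 0.59, adjusted p = 0.115). Xcl1 (lymphotactin), released by NK and CD8+ T cells, had 1 read in sham and 83 in cPTAA, a ratio of 52.8 (95% exact interval 9.22 to 2110, counting error only; limma adjusted p = 0.00147). Its receptor Xcr1, which marks cross-presenting dendritic cells, was at 4.22, 6.82, 25.5, 7.60 and 1.16 against 30.4 to 76.6 with a median of 40.6 (log2 fold change 2.63 ± 0.49, adjusted p = 0.00129). The highest sham value, in library 8, stayed below the lowest aneurysm. Ccl20 had 3 reads in cPTAA and 9 in sham, all of the latter in sham 8, and was too low to test. Its receptor Ccr6 was not called (41 reads against 2, adjusted p = 0.145).

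Ccl11 and Ccl24, the tested ligands of the eosinophil receptor CCR3, were not called, whereas the receptor was. Ccl11 (eotaxin) was at 331, 365, 234, 264 and 374 in sham and at 123 to 384 with a median of 241 in cPTAA (log2 fold change -0.38 ± 0.25, adjusted p = 0.298), and the values were interleaved. Ccl24, the other CCR3 ligand, was at 6.86 to 40.6 in cPTAA and at 24.4 to 52.0 in sham (log2 fold change -0.53 ± 0.39, adjusted p = 0.363). Their receptor Ccr3, the main chemokine receptor of eosinophils, was low, at 3.16, 0, 6.11, 0 and 0 against 0.986 to 18.3 with a median of 12.1 (log2 fold change 2.41 ± 0.67, adjusted p = 0.0163). That call was lost without sham 10 (log2 fold change 2.16, adjusted p = 0.0506), and cPTAA 6, at 0.986, lay below sham 1 and sham 8. Of 4 tested eosinophil markers 1 was higher, and Il5ra (adjusted p = 0.114), Prg2 (0.125) and Ear2 (0.353) did not pass. The one higher was Siglecf, at 8.003 ± 5.21 against 0.645 ± 0.967 (SD; log2 fold change 2.40 ± 0.52, adjusted p = 0.00377). Epx had a value above 0 in 3 cPTAA libraries and in 0 sham libraries.

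Ccr10, the receptor for the epithelial chemokines Ccl27 and Ccl28, was the 1 member called lower. It was at 52.7, 42.9, 41.8, 34.7 and 75.7 in sham and at 8.87 to 23.1 with a median of 20.3 in cPTAA (log2 fold change -1.44 ± 0.31, adjusted p = 0.00328). All aneurysms were below all sham libraries, as in 4.95% of tested genes. Ccl28 had a log2 fold change of -1.42 ± 0.58 (adjusted p = 0.0906) and Ccl27a one of -0.48 ± 0.23 (adjusted p = 0.151). Ccl27a shares 45.0% of its stretches of 50 bases with copies and overlaps Il11ra1. Ccl25, a thymic and gut chemokine, had a log2 fold change of -0.57 ± 0.30 (adjusted p = 0.192), and Ccr9, its receptor, one of 0.72 ± 0.76 (adjusted p = 0.537). No member of these mucosal and skin ligands was called by limma, of 3 tested, with 1 at an unadjusted p under 0.05.

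Of the remaining CXC ligands, Cxcl14, a stromal chemokine whose receptor is debated, was at 65.4, 46.8, 110.0, 80.3 and 67.5 in sham and at 95.6 to 621 with a median of 226 in cPTAA (log2 fold change 1.96 ± 0.41, adjusted p = 0.00293). The lowest aneurysm, cPTAA 7, lay under sham 8. Cxcl15 and Cxcl17, chemokines of lung and airway epithelium, were at 79.5 and 852 in sham 8 and at no more than 2.59 and 58.2 in any other library. The airway gene Scgb1a1 was at 40496 in sham 8, at 3550 in sham 11 and at 0 to 50.8 in the others. Of 7 lung and airway markers, a list chosen after seeing the data, 5 could be tested. The 7 summed to 68689 in sham 8, to 6288 in sham 11 and to 1.05 to 138 elsewhere. The log2 fold changes of Cxcl15 (-1.26 ± 0.87, adjusted p = 0.330) and Cxcl17 (-0.23 ± 1.33, adjusted p = 0.923) rest on sham 8. The next highest value of Cxcl17, 58.2, was in sham 11. Without sham 8, 39 members were called higher and 1 lower, the counts found with it.

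All 4 atypical receptors were called higher, with a median log2 fold change of 1.13. Ackr2, a scavenger of inflammatory CC chemokines on lymphatic endothelium, was at 98.0, 119.8, 66.2, 51.0 and 61.7 in sham and at 126 to 261 with a median of 232 in cPTAA (log2 fold change 1.46 ± 0.25, adjusted p = 0.000579). It was the atypical receptor without overlap. Ackr1 (DARC), which carries chemokines across venular endothelium, was at 61.1, 63.3, 60.1, 55.3 and 34.9 against 57.0 to 129 with a median of 102 (log2 fold change 0.80 ± 0.23, adjusted p = 0.0221). The call was lost without sham 11 (log2 fold change 0.65, adjusted p = 0.0671). Exons of Ackr1 and Cadm3 overlap on the same strand. Ackr4, a scavenger of Ccl19, Ccl21 and Ccl25, was at 10.5, 13.6, 58.1, 28.2 and 30.3 against 26.4 to 303 with a median of 66.7 (log2 fold change 1.65 ± 0.56, adjusted p = 0.0434). Its groups overlapped, and 8 libraries (cPTAA 2, 3, 7 and 12, and sham 1, 5, 10 and 11) each cost it the call when left out (log2 fold changes 1.32 to 1.73, adjusted p from 0.0525 to 0.114). Its exons overlap the opposite-strand gene Acad11.

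Ligands and receptors were then set side by side over 35 known pairs, of which 33 had both members tested. Both members were higher in 21 pairs, 1 member was higher and the other not called in 7, and neither was higher in 5. The 7 were Ccl11 and Ccl24 with Ccr3, Ccl17 and Ccl22 with Ccr4, Cxcl1 and Cxcl2 with Cxcr2, and Cxcl11 with Cxcr3. Whether the log2 ratio of ligand to receptor within a library differed between the groups was tested after these values were seen, with a two-sided exact permutation test over all 792 assignments of the libraries to groups of 7 and 5, adjusted over the 33 pairs. The ratio differed in 12 pairs (15 at an unadjusted p under 0.05). That count was 2 when cPTAA 3, cPTAA 4, cPTAA 7, cPTAA 9 or sham 10 was left out, 3 without sham 5, and 7 without cPTAA 2 or without sham 1. The 2 counted without sham 10 were at the threshold itself.

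Cxcl9 and Cxcl11 against Cxcr3 were the ratios that kept the call on leaving out any single library other than sham 10. Without sham 10 their exact permutation adjusted p was at the threshold of 0.05 and not under it. The log2 ratio of Cxcl9 to Cxcr3 was 1.36 ± 0.62 in cPTAA and 3.85 ± 0.74 in sham (SD), a difference of -2.495 ± 0.40 (SE; exact permutation adjusted p = 0.0208). The unadjusted p of 0.00126 is the smallest that this test can give. For Cxcl10 and the same receptor the difference was 0.17 ± 0.59 (exact permutation adjusted p = 0.856). The ratio of Cx3cl1 to Cx3cr1 was 0.43 ± 0.40 in cPTAA and 2.08 ± 0.99 in sham, a difference of -1.66 ± 0.47 (exact permutation adjusted p = 0.0312), which was lost without cPTAA 3, 4, 7 or 9 or sham 5 or 10, while the difference stayed at -2.03 to -1.46 over the alternatives. For Cxcl2 and Cxcr2 the log2 ratio was 1.23 ± 1.29 against -2.01 ± 1.18, a difference of 3.24 ± 0.72 (exact permutation adjusted p = 0.0312), lost without cPTAA 3, 4, 7 or 9 or sham 10, with differences of 2.94 to 4.33 over the alternatives. The ratio of Ccl2 to Ccr2 differed by 1.05 ± 0.64 (exact permutation adjusted p = 0.235) and was not called.

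**Figure D3:**
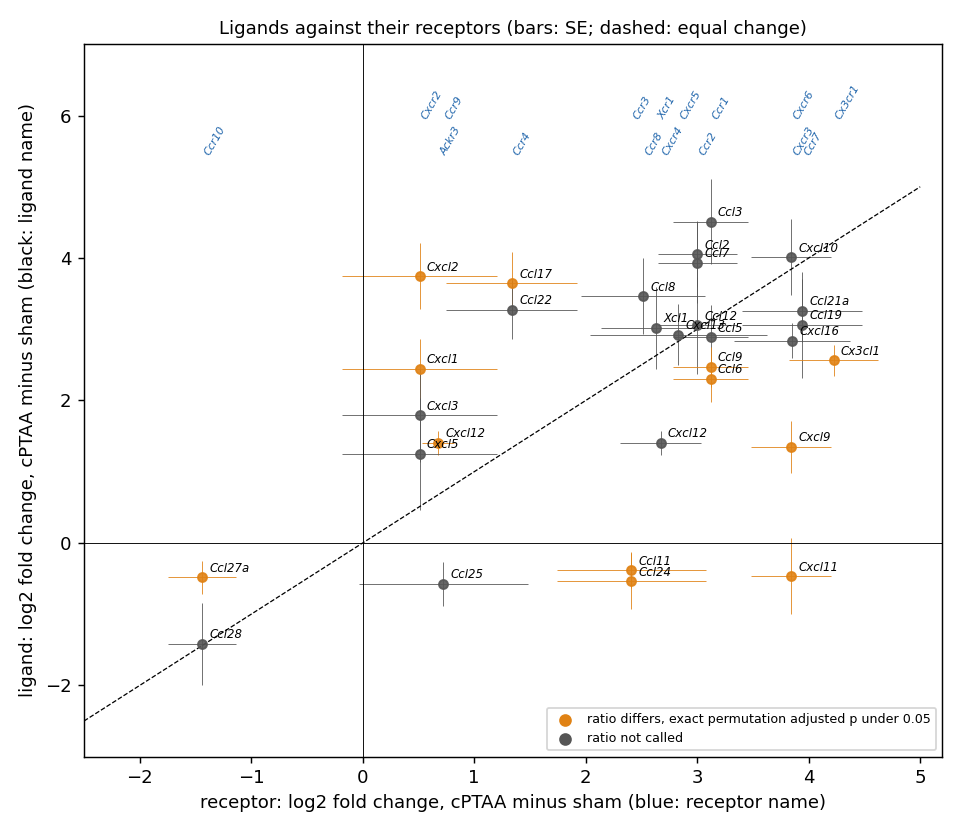
Log2 fold change (cPTAA minus sham, bars SE) of each ligand (vertical axis, black names) against that of its receptor (horizontal axis, blue names) for ligand-receptor pairs, with a dashed line of equal change and orange points where the ratio differed between the groups. Cxcl9 and Cxcl11 lie under the line above Cxcr3, and Cxcl1 and Cxcl2 lie over it above Cxcr2. The position of Ccr8 is a fitted value and not a bound.

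Ligands and receptors were also compared from library to library within the aneurysms. Over the 7 cPTAA libraries, 25 of 33 pairs had a positive Pearson correlation of log2 values, with a median r of 0.31. After adjustment 0 pairs passed, and 1 had an unadjusted p under 0.05 by an exact test over all 5040 pairings. That pair was Ccl9 and Ccr1 (r = 0.93, exact p = 0.00397, adjusted p = 0.131; Spearman rho = 0.86, exact p = 0.0238, adjusted p = 0.393), with r = 0.78 without cPTAA 6 and 7, the libraries farthest from the median of Ccr1. For Ccl2 and Ccr2 r was 0.09 (exact p = 0.854, adjusted p = 0.949; rho = 0.11, exact p = 0.840), and -0.43 without cPTAA 6 and 7. With 5 sham libraries no correlation was computed there.

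The aneurysm libraries differed in which chemokines they held most of. Over the 39 members called higher, cPTAA 7 was the lowest aneurysm in 20 and cPTAA 12 in 9, while cPTAA 9, 2 and 12 were the highest in 11, 10 and 10. Library 12 had the lowest Ccl2, Ccl7, Ccl12, Ccl3, Ccl4 and Cxcl10 of the 7 and the highest Cxcl13, Cxcr5, Ccr7, Cxcr4, Ccr2 and Ackr4. Library 9 had the highest Ccl4, Ccl5, Cxcl1, Xcl1, Ccl19, Cxcr3 and Cxcr6 and the lowest Cx3cl1, Cx3cr1, Ackr2 and Ackr3. These genes were picked for their values, and no test was made of the contrast. In library 12 the summed B cell markers were at 3252 against 145 to 783 in the other aneurysms, and brown adipocyte markers were at 1791 against 8072 to 45357. In library 9 the summed cardiomyocyte markers were at 117957, against 1193 to 22836 in the other aneurysms. The part of these cells in the order of the libraries was not tested.

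**Figure D4:**
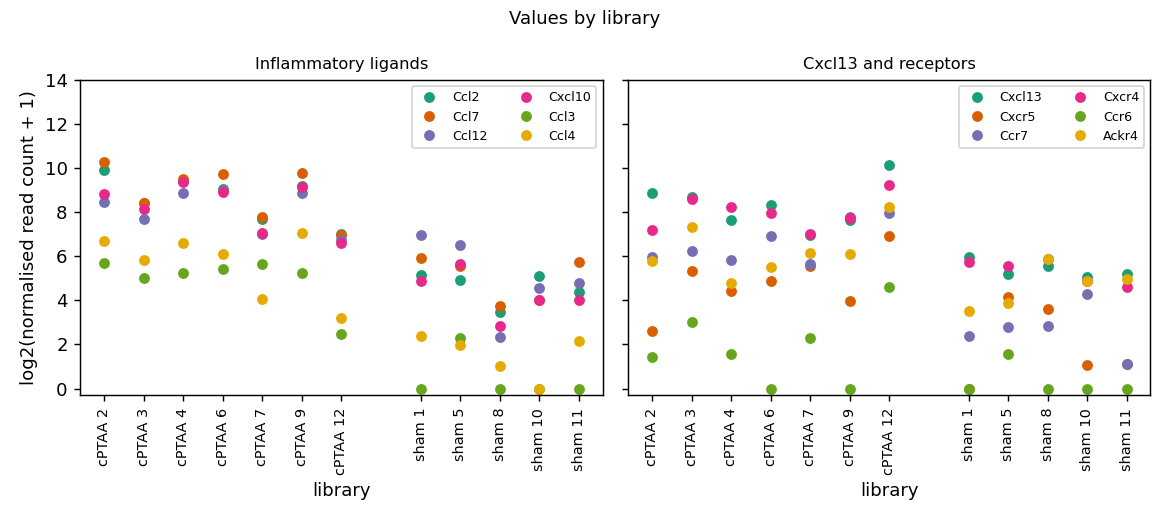
Log2(normalised read count + 1) in each library for the ligands Ccl2, Ccl7, Ccl12, Cxcl10, Ccl3 and Ccl4 (left) and for Cxcl13 and 5 receptors (right). cPTAA 12 is the lowest aneurysm for the 6 genes on the left and the highest for the 6 on the right.

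Members that lie next to each other in the genome were counted by run, beside the 70.9% of all tested members that were higher, and no test of a difference was made. In the run Ccl5, Ccl9, Ccl6, Ccl3 and Ccl4, 5 of 5 were higher, and in the run Ccl22, Cx3cl1 and Ccl17, 3 of 3. In the run Ccl2, Ccl7, Ccl11, Ccl12, Ccl8 and Ccl1, 4 of 5 tested genes were higher, and Ccl11, which lies between Ccl7 and Ccl12, was the one not called. Among Cxcl9, Cxcl10 and Cxcl11, 2 of 3 were higher, and among Cxcl5, Cxcl3, Cxcl15, Cxcl1 and Cxcl2, 2 of 5. In the run Ccl19-ps2, Ccl27b, Ccl19 and Ccl21a both tested genes were higher.

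The share of each ligand in the whole ligand pool was also listed, and no share was tested. Counted per kilobase of exon and summed over the 34 tested ligands, the pool was at 12888 ± 3406 in cPTAA and 2685 ± 870 in sham (SD). Ccl11 made up 11.7% ± 3.91 of that pool in sham (SD, n = 5; 6.92% to 15.8%) and 1.78% ± 0.35 in cPTAA (SD, n = 7; 1.38% to 2.43%). Cxcl12 made up 13.2% ± 5.15 and 6.97% ± 1.57, and its shares overlapped (8.60% to 19.9% in sham, 4.17% to 9.40% in cPTAA). These lower shares are of a larger pool: the level of Cxcl12 was called higher, and that of Ccl11 was not called. Cxcl17 held 0% to 35.8% of the pool in sham, with the top share in sham 8, where the other shares are lowered by it. Ccl21a had a higher mean share in cPTAA, with 11.6% ± 8.15 in sham and 21.1% ± 9.64 in cPTAA, and here too the groups overlapped. Summed over the 17 tested receptors, the pool was at 1039 ± 284 in cPTAA and 139 ± 45.0 in sham, and Ccr10 held 23.03% ± 13.2 of it in sham and 1.03% ± 0.42 in cPTAA. Ccl6 had the highest mean level per kilobase among ligands in sham (470.5). In cPTAA Ccl21a (2554, uncertain through its copies) and Ccl6 (2348) were highest and differed by less than their spread. Among receptors the highest were Ccr10 in sham (28.7) and Cx3cr1 in cPTAA (202). In sham Ccr10 and the next receptors, Ccr2 (24.1) and Cxcr4 (22.9), differed by less than their spread, and so did Cx3cr1 and Ccr2 (189.5) in cPTAA.

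Genes that act downstream of chemokine receptors were mostly higher. Of 38 genes of receptor signalling, 25 were higher and 3 lower, with a median log2 fold change of 1.17. The 5 with the smallest p were Coro1a and Rac2, of the leukocyte actin machinery (2741 ± 828 against 322 ± 122 and 1083 ± 327 against 131 ± 62.7; log2 fold changes 3.11 ± 0.28 and 3.12 ± 0.30), the beta-arrestin Arrb2, which ends receptor signalling (812 ± 159.6 against 209.9 ± 45.7; 1.94 ± 0.18), the exchange factor Vav1 (3.12 ± 0.31) and the integrin activator Fermt3 (2.23 ± 0.23). The 3 lower genes were the receptor kinase Grk3, the G protein regulator Rgs2 and the Rap exchange factor Rasgrp2. Among genes that cleave, present or bind chemokines, 11 of 26 tested were higher and 1 was lower. The proteases Ctss, Ctsk and Mmp12 and the invariant chain Cd74 led the rises (log2 fold changes 3.45 ± 0.31, 2.19 ± 0.25, 3.62 ± 0.46 and 2.21 ± 0.35), and the lower gene was Pitpnm3 (-1.32 ± 0.22). Of cytokines that induce chemokines, 9 of 12 tested were higher. Il1b was at 163 ± 108 against 13.7 ± 6.80, Tnf at 54.4 ± 24.8 against 3.55 ± 1.001, Il6 at 52.2 ± 41.7 against 2.66 ± 2.89, Osm at 31.3 ± 11.3 against 2.53 ± 1.38 and Lta at 6.31 ± 2.96 against 0.415 ± 0.5678 (SD; log2 fold changes 3.33 ± 0.43, 3.34 ± 0.55, 3.92 ± 0.66, 3.19 ± 0.42 and 2.37 ± 0.41). Adjusted p-values of the genes named here were at most 0.000741.

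When the mean log2 level of the brown adipocyte markers entered the model, 18 members were called higher and 0 lower. That level was 8.32 ± 1.11 in cPTAA and 11.1 ± 0.63 in sham (SD). It thus largely followed the group, and the fit can separate the marker level from the group only weakly. Over all tested genes 479 calls were then made, with 1.62% higher, and a median SE of 0.51 against 0.30. Among those that passed were Ccl2, Ccl3, Ccl4, Ccl5, Ccl7, Ccl9, Ccl12, Ccl22, Cxcl1, Cxcl2, Cxcl10, Cxcl12, Cxcl16, Cx3cl1, Ccr1, Cxcr3 and Cx3cr1. The other 21 kept a positive fold change but lost the call (adjusted p from 0.0632 to 0.916). Some had folds near or above those without the covariate: Ccl6 (2.32 against 2.31), Ccl19 (3.90 against 3.06), Xcl1 (3.90 against 3.02), Cxcl9 (1.59 against 1.35) and Ccr7 (3.57 against 3.94). In others the fold was lower. The change of Cxcl13 was 1.23 against 2.92, that of Cxcr4 1.497 against 2.67, that of Cxcr5 0.43 against 2.83, that of Xcr1 1.04 against 2.63, that of Cxcl14 0.87 against 1.96, that of Ackr4 0.20 against 1.65 and that of Ackr3 0.43 against 0.68. Among the aneurysms, cPTAA 12 had the highest value of each of these genes with a lower fold except Cxcl14. It also had the lowest summed brown adipocyte markers, at 1791 against 8072 to 45357. The part of that library in the lower folds was not tested. Ccr10 had a change of -1.598 and an adjusted p of 0.132.

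The 8 members below the filter were Ccl1, Ccl19-ps2, Ccl20, Ccl21b, Ccl26, Ccl27b, Ccr1l1 and Cxcr1. Their reads over all 12 libraries were few. Ccl1, the other CCR8 ligand, had 8 reads in cPTAA and 0 in sham, Ccl26 had 0 and 3, Ccr1l1 9 and 1, Ccl27b 13 and 15, Ccl21b 2 and 1, and Ccl19-ps2 2 and 0. With so few reads a difference between the groups could be missed. Without the filter, where all 63 members were tested, no call was gained.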

How the data were processed

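Whole-tissue RNA was captured on oligo-dT beads, per the labels' protocols. HISAT2 2.0.5, featureCounts 1.5.0-p3 and StringTie with the build GRCm39 are named in the submitters' processing notes. Of strand setting, scaling and filters, the sources used here give nothing. The deposited values are a signal that is a whole number of reads divided by 1 factor per library: 100% of values were whole within 0.02 reads (largest deviation 0.000311), and 1 read was worth 0.863 to 1.16 units. They are called normalised read counts. Groups and library numbers came from the sample titles.

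Groups were compared on log2(value + 1) by limma 3.58.1 in R 4.3.3, using its trend option, for the 21415 genes with a value of at least 1 in at least 5 libraries. P-values were adjusted by Benjamini-Hochberg over all of them, with a threshold of 0.05, and 5128 genes (23.9%) were called. Fold changes are on that scale and understate those of low genes. On the recovered reads, edgeR 4.0.16 (quasi-likelihood, TMM) called 4969 genes and DESeq2 1.42.0 called 5925. Other alternatives were edgeR with library totals, TMM scaling under limma, a pseudocount of 0.1, no filter, a filter at 10, voom with sample weights, the brown adipocyte marker score as a covariate, leaving out cPTAA 6, 7 and 9 and sham 8, and leaving out each library. Calculations were tested on simulated data.

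Members and lists were chosen with earlier results of these data known. Any member may be named, but results for some genes are not reported here. Values in every library were given for the 12 members with the smallest p, the member that fell, both members of pairs with a call where the higher group averaged 10 or more, and the atypical receptors. For each pathway list at most 5 genes with the smallest p were named, besides those lower. Exon lengths, overlaps and shared 50-base stretches came by symbol from GENCODE M21, which matched 62 members. A length joined the exons of all transcripts of a gene, so the order of genes per kilobase depends on the annotation. Gene order came from RefSeq (GRCm38.p6), with a run being at least 3 members less than 250 kb apart. Libraries of 1 group all differed beyond sampling noise (chi-square over degrees of freedom at least 18.8).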

Additional observations from a re-analysis of the deposited data

Results flagged for a closer look

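In 109 sets of values, 1 member in 1 group each, 17 had a library far from the others on the log2 scale (Dixon's test at 95%), where chance flags about 1 in 20. Of these, 5 were low values in cPTAA 7. Ccl6 was at 1529 there against 3852 to 6757 in the other 6 aneurysms, Ccl8 at 161 against 663 to 1537, Ccl9 at 1205 against 2312 to 3546, Cxcl16 at 643 against 1169 to 1601 and Cxcl2 at 13.5 against 32.5 to 45.1.

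In cPTAA 9, Cx3cl1 was low at 672 (others 1118 to 1403) and Cxcr3 high at 213 (others 82.1 to 123). Ccl3 was low in cPTAA 12 at 4.62 (others 31.5 to 50.9), and Ccr3 was low in cPTAA 6 at 0.986 (others 8.82 to 18.3).

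In sham 8, Cxcl15 stood out at 79.5 (others 0 to 2.11), Ccl24 at 52.0 (others 24.4 to 30.2) and Cxcl3 at 1.02 (others 0), the last a single read. Ackr1 was low in sham 11 at 34.9 (others 55.3 to 63.3), and Cxcl11 was at 0 in sham 1 (others 4.87 to 7.13). Few reads lay behind Ccl3 in sham 5 at 3.90, Ccr6 in sham 5 at 1.95 and Xcl1 in sham 1 at 1.05, with the other sham libraries at 0 in each.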

How the results depend on the processing

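Of the 40 calls, 35 were kept in every alternative other than the brown adipocyte covariate in which the gene was tested. The 5 lost on leaving out 1 library were Ackr1, Ackr4, Ccr3, Cxcl9 and Cxcr5, and Ackr4 was also lost without a filter (adjusted p = 0.0523). Leaving out each library gave 36 to 39 members higher, 1 to 3 lower and 3880 to 5988 calls over the table. Members lower numbered 2 by edgeR with TMM, by edgeR with library totals, by DESeq2 and without cPTAA 6, 7 and 9 and sham 8, and 3 without cPTAA 12. The covariate gave 18 members higher and 0 lower, 479 calls over the table, and 15 pathway genes higher and 0 lower, against 45 and 4. With library totals 66.0% of calls over the table were rises, against 53.7%, and the median log2 fold change of all genes was 0.09 against -0.05. A sign turned in members that were not called: Ccl19-ps3 (-0.0067 by voom, -0.056 to 1.13 on leaving out 1 library), Ccl27a (0.15) and Ccr6 (-0.79) with the covariate, Cxcl15 without the 4 libraries (0.38), and Cxcl17 (0.48 with a pseudocount of 0.1, 1.18 by voom, 1.996 without the 4 libraries, -1.17 to 1.26 on leaving out 1 library). The ratios that differed, 12, numbered 2 to 8 on leaving out 1 library, where the 2 without sham 10 were at the threshold itself. They numbered 0 without the 4 libraries (exact permutation adjusted p = 0.135 for Cxcl9 with Cxcr3). With 4 against 4 libraries a call needs most of the 33 pairs at the smallest exact p, so this 0 says nothing about stability. The causes were not tested. No pair correlated in any alternative run (0 calls each). No paired analysis was possible because the groups share no library number.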

Other observations

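Ccr9 was at 129 in cPTAA 3 and at 2.93 to 51.7 in the other aneurysms. In the same library Rag1, a gene of developing lymphocytes, was at 749.7, against 0 to 75.7 in the other aneurysms and 0 to 111 in sham. Of 5 tested thymus markers, 0 were higher by limma and 1 was lower.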
